A study of Mus musculus with 6 samples.

Results

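The genes described here are 33 genes of the EGFR, RAS and ERK pathway, chosen by symbol from the 52249 genes of the deposited count table: receptors, their ligands, the RAS to ERK relay, the inhibitors that ERK signalling switches on, and ERK-responsive transcription factors. All 33 symbols were found, and 32 of the genes had enough counts to be tested. They were measured in 6 libraries of mouse intestinal organoids, epithelial cultures labelled as lacking Apc, a tumour suppressor gene whose product keeps WNT signalling in check. All 6 libraries were labelled Apc knockout; 3 had no further label and are called control, and 3 were labelled Apc-knockout IGF2BP3 OE and are called OE (overexpression of IGF2BP3, an RNA-binding protein). The vector, the promoter used for overexpression, the age of the mice, and whether libraries came from separate cultures or clones are not given in the sources used here, so p-values measure only the spread between these libraries, which may be technical.

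ERBB receptors are membrane tyrosine kinases that bind ligands of the epidermal growth factor family. They recruit the adaptor GRB2 and the exchange factor SOS, which load RAS with GTP, and RAS then passes the signal through RAF and MEK kinases to ERK. ERK induces its own brakes, the DUSP phosphatases and the Sprouty and SPRED proteins, so that transcripts of these brakes are often read as a trace of recent ERK output. In the intestinal crypt this pathway drives proliferation of stem and progenitor cells, and organoids are usually grown with added EGF.

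Library totals were 2180116 to 2228078 counts in control and 2310236 to 2519917 counts in OE. Levels are given as CPM, counts scaled to a common library size with TMM factors, and differences as log2 fold changes of OE over control (hereafter log2 change) with their standard error (SE). Because the kit counts fragments near the polyadenylated end of a transcript, CPM was not divided by transcript length. The Igf2bp3 gene itself had 1, 0 and 0 counts in control and 1, 0 and 0 in OE, so the counts gave no check of the label. Apc was counted at 182, 174 and 164 in control and 158, 151 and 148 in OE; which part of the gene was deleted is not given in the sources used here, so transcript-end counts do not check the knockout either. Library names place the groups in separate library series, and a series difference and a group difference cannot be told apart. Of 9 epithelial markers 8 were tested, with summed levels of 4150 to 4390 CPM in control and 5400 to 6130 CPM in OE. Krt20 was at 0. These markers did not move together. At an edgeR adjusted p below 0.05, Vil1, Krt8, Krt18 and Krt19 rose (log2 changes 0.65 to 0.92). Cldn7 fell (log2 change -1.09, edgeR adjusted p = 0.000177), and Epcam, Cdh1 and Cdx2 did not pass. All 9 fibroblast and all 5 endothelial markers had at most 3 counts in any library. Of 5 embryonic fibroblast and feeder markers, 4 also had at most 3 counts. The remaining one, Fn1, had 362 to 422 counts in control and 333 to 530 in OE (log2 change -0.08, edgeR adjusted p = 0.754). The summed immune markers ran from 41.3 to 51.6 CPM in control and 60.9 to 75.8 CPM in OE, mostly Csf1r and Cd68, with Cd3e, Adgre1 and Cd79a among those at 0. The summed nerve and glia markers, mostly S100b, ran from 49.3 to 53.5 CPM and from 100 to 119 CPM. The part of these differences in the results below was not tested.

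Among the members, most ligands and most of the tested feedback inhibitors fell in OE, while those that rose belonged to the RAS to ERK relay. At an adjusted p below 0.05 (edgeR quasi-likelihood test, Benjamini-Hochberg adjustment over 10687 genes), 10 members fell (Areg, Ereg, Hbegf, Btc, Sos1, Dusp4, Dusp5, Dusp6, Spry2 and Spred1) and 2 rose (Hras and Mapk3). Across all tested genes 29.2% passed, 16.5% higher and 12.7% lower. The median log2 change was -0.23 over the 32 tested members and 0.04 over all tested genes. For 20 of the 32 members every OE library lay on the same side of all control libraries, against 45.7% of all tested genes. In bulk libraries, fewer cells of a type and less RNA per cell cannot be told apart. Without control replicate 1 the test called 6 members lower and 2 higher, beside 7.27% and 10% of all genes. Members that rose numbered 1 with the GC offset described below (12.8% of all genes) and 4 when libraries were scaled by their totals (19%). At an adjusted p below 0.01 it called 6 members lower and 1 higher, beside 5.93% and 8.83% of all genes.

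**Figure D1:**
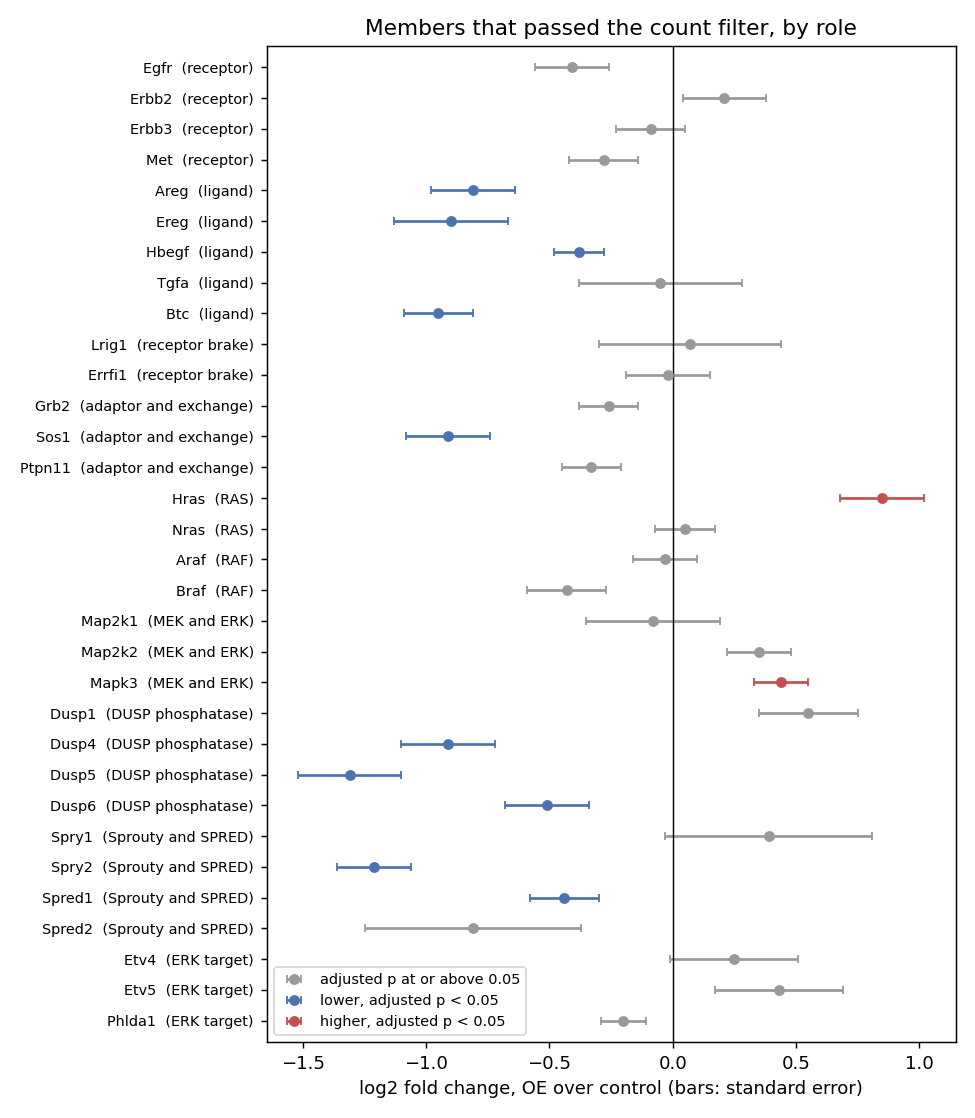
Log2 fold change of OE over control (x axis) for the 32 members that passed the count filter (y axis, with role); points are edgeR estimates from 3 libraries per group and bars are standard errors. Of the ligands 4 of 5, and 5 of the 8 tested feedback inhibitors, lie to the left in blue, and only Hras and Mapk3 lie to the right in red.

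Of the 5 ligands of the ERBB receptors 4 were lower, beside 12.7% of all tested genes, and Tgfa was not called. Among the DUSP members, described below, 3 of 4 were lower as well. The summed level of the 5 ligand transcripts was 578.9, 582.7 and 578.7 CPM in control and 327.4, 381.4 and 414.3 CPM in OE. Every control library thus lay above every OE library, with means of 580.1 ± 2.25 and 374.4 ± 43.9 CPM (SD, n = 3 each).

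Areg encodes amphiregulin, a ligand of EGFR. Its libraries held 232.7, 278.2 and 245.1 CPM in control and 100.5, 149 and 181.8 CPM in OE. The groups did not overlap, and OE replicate 1 was the lowest library. Areg was 1.75-fold lower in OE (log2 change -0.81, SE 0.17, edgeR adjusted p = 0.00448).

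Btc encodes betacellulin, which binds EGFR and ERBB4. Its levels came to 83.4, 67.1 and 71.9 CPM in control and 35.2, 40.1 and 39.3 CPM in OE. All OE libraries lay close together and well below control. The fall was 1.94-fold (log2 change -0.95, SE 0.14, edgeR adjusted p = 0.000517), and the log2 change was -0.66 with the offset for GC content described below (edgeR adjusted p = 0.00577).

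Ereg encodes epiregulin, a ligand of EGFR and ERBB4. It was a weakly expressed gene, with 24.4, 21.6 and 16.6 CPM in control and 9.72, 10.6 and 13.1 CPM in OE. The groups were apart, although control replicate 3 came near the OE libraries. Ereg fell 1.87-fold (log2 change -0.90, SE 0.23, edgeR adjusted p = 0.0119). Its call was lost without control replicate 1 (log2 change -0.78, edgeR adjusted p = 0.064) and with an offset for GC content (-0.64, edgeR adjusted p = 0.0574).

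Hbegf encodes heparin-binding EGF-like growth factor, which is made as a membrane-bound precursor. Hbegf stood at 229.5, 205.9 and 231.7 CPM in control and 168.1, 176.2 and 168.3 CPM in OE. No OE library reached the lowest control library, but the step was smaller than for the other 3 ligands that fell: 1.3-fold (log2 change -0.38, SE 0.10, edgeR adjusted p = 0.0159). Without control replicate 1 or control replicate 3 the adjusted p was 0.0797 and 0.089 (edgeR).

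Tgfa encodes transforming growth factor alpha. Levels of 8.76, 9.85 and 13.4 CPM in control and 13.8, 5.51 and 11.8 CPM in OE were counted. The groups overlapped, and the log2 change of -0.05 (SE 0.33, edgeR adjusted p = 0.933) leaves changes in both directions within its error. Epgn, the gene of epigen, had 0 counts in all 6 libraries, and Egf had 3 to 6 counts in each, so neither was tested.

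**Figure D2:**
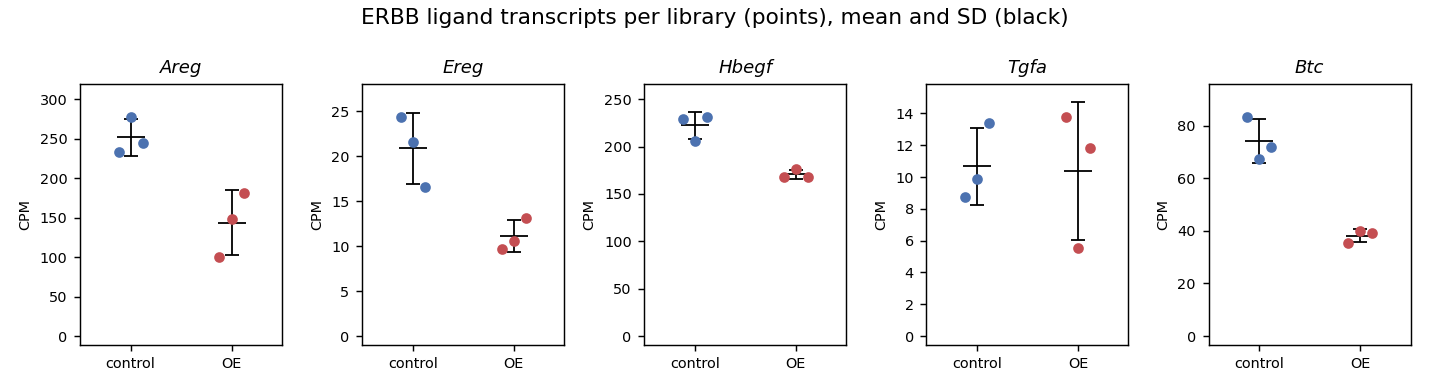
CPM (y axis) of the 5 ERBB ligand transcripts in each library (points; blue control, red OE) with the mean and SD of 3 libraries in black. For Areg, Ereg, Hbegf and Btc all red points lie below all blue points, whereas those of Tgfa overlap.

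Ereg, Areg and Btc are neighbours on mouse chromosome 5 in GRCm38, at chr5:91074622-91093646, chr5:91139599-91148432 and chr5:91357261-91402994, with Ereg and Areg on the plus strand and Btc on the minus strand. Among the 7 other protein-coding genes tested within 500 kb of this stretch, 3 passed, beside 29.2% of all tested genes. All 3 were higher, beside 16.5% of all tested genes: Cxcl5 (log2 change 0.91, edgeR adjusted p = 0.00131) and Pf4 (1.76, edgeR adjusted p = 0.00156), both chemokine genes, and Parm1 (0.50, edgeR adjusted p = 0.00374). Rassf6 (-0.29, edgeR adjusted p = 0.65) was not called. Nor were the chemokine genes Cxcl1 (0.57, edgeR adjusted p = 0.157) and Cxcl2 (0.08, edgeR adjusted p = 0.887), which lie nearer to Ereg than Pf4. Mthfd2l, which lies between the chemokine genes and Ereg, had a log2 change of 0.17 (edgeR adjusted p = 0.731). The 3 ligand genes thus moved opposite to the nearest genes that passed on either side. These neighbouring genes were chosen by position after the values of the ligands were seen.

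The promoters of Areg and Btc are shown because these are the ligand genes of the cluster that fell in every alternative tried and have an entry in the RefSeq promoter table (GRCm38.p6, 250 bases before to 50 after a start site). Capitals mark matches, on either strand, to 5 motifs: the cyclic AMP response element TGACGTCA, the CArG box bound by serum response factor, the ETS core CCGGAA, the AP-1 site TGANTCA and the TATA box TATAAA. The Areg window (chr5:91139349-91139648, plus strand) holds TGACGTCA starting 61 bases and TATAAA starting 31 bases before the start site. The Btc window (chr5:91402945-91403244, minus strand) holds none of the 5.
Areg: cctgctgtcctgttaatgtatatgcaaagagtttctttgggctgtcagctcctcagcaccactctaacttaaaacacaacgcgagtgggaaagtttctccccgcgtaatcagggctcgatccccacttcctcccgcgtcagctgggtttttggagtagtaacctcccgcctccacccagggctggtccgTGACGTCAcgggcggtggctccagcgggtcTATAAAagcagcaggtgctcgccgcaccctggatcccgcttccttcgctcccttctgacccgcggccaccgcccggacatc
Btc: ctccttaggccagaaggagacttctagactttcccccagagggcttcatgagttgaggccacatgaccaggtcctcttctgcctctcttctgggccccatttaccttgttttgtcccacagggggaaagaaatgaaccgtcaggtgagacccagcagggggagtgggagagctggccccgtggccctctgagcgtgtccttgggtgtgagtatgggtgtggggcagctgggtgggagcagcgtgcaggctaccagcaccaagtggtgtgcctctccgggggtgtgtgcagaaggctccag
The response element occurred in 1.8% and the TATA box in 13.6% of 32544 such windows over all genes. Of the 25 members with an entry, 5 held the response element (Areg, Braf, Dusp1, Errfi1 and Ptpn11), of which Areg was called, and 3 held the TATA box. A member was counted if any of its windows matched, whereas the shares count windows, so the units differ.

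None of the 4 receptors was called. Egfr, the receptor of these ligands, was counted at 53.9, 51.6 and 47.5 CPM in control and 36.5, 35.0 and 44.0 CPM in OE. The groups did not overlap, but the log2 change of -0.41 (SE 0.15) had an edgeR adjusted p of 0.0522. Leaving out OE replicate 1 or OE replicate 3 brought the adjusted p to 0.0401 and 0.0197 (edgeR), and DESeq2's test gave 0.115. The GC and length offsets gave log2 changes of -0.24 and -0.19 (edgeR adjusted p = 0.252 and 0.356). For Met, the receptor of hepatocyte growth factor, the levels were 77.9, 71.8 and 70.5 CPM in control and 64.0, 67.6 and 49.0 CPM in OE. OE replicate 3 was the lowest, and the log2 change was -0.28 (SE 0.14, edgeR adjusted p = 0.152).

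Erbb2 encodes the ERBB partner that has no ligand of its own. It was counted at 56.2, 37.1 and 41.9 CPM in control and 51.5, 59.0 and 46.1 CPM in OE. Its groups overlapped (log2 change 0.21, SE 0.17, edgeR adjusted p = 0.376). Erbb3, whose protein pairs with ERBB2 and binds neuregulins, was counted at 56.2, 48.8 and 57.1 CPM in control and 45.4, 53.5 and 53.3 CPM in OE, which also overlapped (log2 change -0.09, SE 0.14, edgeR adjusted p = 0.647). Erbb4, the remaining ERBB receptor, and Hgf, the ligand of MET, had 0 counts in all 6 libraries.

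Of the 2 receptor brakes neither was called. Lrig1, which encodes a membrane protein that promotes ERBB turnover and marks crypt stem cells, was counted at 13.8, 19.7 and 8.75 CPM in control and 6.89, 17.3 and 20.3 CPM in OE. Its libraries spread widely within both groups (log2 change 0.07, SE 0.37, edgeR adjusted p = 0.904). Errfi1, the gene of the cytoplasmic EGFR inhibitor MIG6, was counted at 27.2, 33.8 and 39.6 CPM in control and 32.8, 36.2 and 30.4 CPM in OE, with overlapping groups (log2 change -0.02, SE 0.17, edgeR adjusted p = 0.956).

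The relay from adaptors to ERK was mixed, with a median log2 change of -0.05. Of its 10 members 2 rose and 1 fell, beside 16.5% and 12.7% of all tested genes, and 7 were not called. These counts do not set the relay apart from other genes. Sos1 encodes the exchange factor that GRB2 brings to RAS. Its levels were 65.4, 46.4 and 62.7 CPM in control and 26.7, 30.3 and 35.9 CPM in OE. Even the lowest control library lay above all OE libraries, and the fall was 1.88-fold (log2 change -0.91, SE 0.17, edgeR adjusted p = 0.00233).

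Hras, one of the RAS genes, moved the other way. It was counted at 26.3, 26.3 and 30.9 CPM in control and 59.1, 50.3 and 41.0 CPM in OE. All OE libraries were higher, although they differed among themselves, and the rise was 1.8-fold (log2 change 0.85, SE 0.17, edgeR adjusted p = 0.00331). Nras, with levels of 112.9, 116.3 and 96.8 CPM in control and 105.7, 120.7 and 110.3 CPM in OE, overlapped between groups (log2 change 0.05, SE 0.12, edgeR adjusted p = 0.796).

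Mapk3 encodes the kinase ERK1. Mapk3 stood at 266.4, 251.5 and 244.6 CPM in control and 372.3, 363 and 296.4 CPM in OE. OE replicate 3 was the nearest to control, and the rise was 1.35-fold (log2 change 0.44, SE 0.11, edgeR adjusted p = 0.0122). The call was lost with the GC offset (log2 change 0.20, edgeR adjusted p = 0.25), with an offset for exonic length (0.26, edgeR adjusted p = 0.139), and without OE replicate 2, control replicate 2 or control replicate 3 (edgeR adjusted p = 0.0726, 0.0659 and 0.0746).

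The other 7 relay members were Nras, the adaptor Grb2, the phosphatase Ptpn11 (SHP2), the RAF kinases Araf and Braf, and the MEK kinases Map2k1 and Map2k2; their log2 changes ran from -0.43 (Braf) to 0.35 (Map2k2). Map2k2, counted at 64.5, 83.0 and 76.5 CPM in control and 100.1, 96.3 and 90.1 CPM in OE, did not overlap between groups (SE 0.13, edgeR adjusted p = 0.0531; without OE replicate 3, 0.0337). Braf, at 49.3, 38.5 and 47.9 CPM in control and 36.9, 32.6 and 31.3 CPM in OE, did not overlap either (SE 0.16, edgeR adjusted p = 0.0557; without OE replicate 1, 0.0142). With the GC offset both were nearer to 0, Map2k2 at 0.09 (edgeR adjusted p = 0.667) and Braf at -0.22 (edgeR adjusted p = 0.38). The length offset gave 0.40 for Map2k2 (edgeR adjusted p = 0.0495) and -0.15 for Braf (edgeR adjusted p = 0.52). Map2k2 passed in 3 and Braf in 4 of 18 alternatives.

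Map2k1, the gene of MEK1, was counted at 52.5, 58.2 and 46.5 CPM in control and 24.7, 59.0 and 65.5 CPM in OE. OE replicate 1 alone was low, and without it the log2 change went from -0.08 to 0.19 (edgeR adjusted p = 0.317). Grb2 and Ptpn11 were lower in every OE library than in any control library, with log2 changes of -0.26 (SE 0.12, edgeR adjusted p = 0.128) and -0.33 (SE 0.12, edgeR adjusted p = 0.0635). With the GC offset both passed, at -0.37 and -0.39 (edgeR adjusted p = 0.047 and 0.0401). Grb2 passed in 2 and Ptpn11 in 4 of 18 alternatives. Araf overlapped between groups (log2 change -0.03, SE 0.13, edgeR adjusted p = 0.899).

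**Figure D3:**
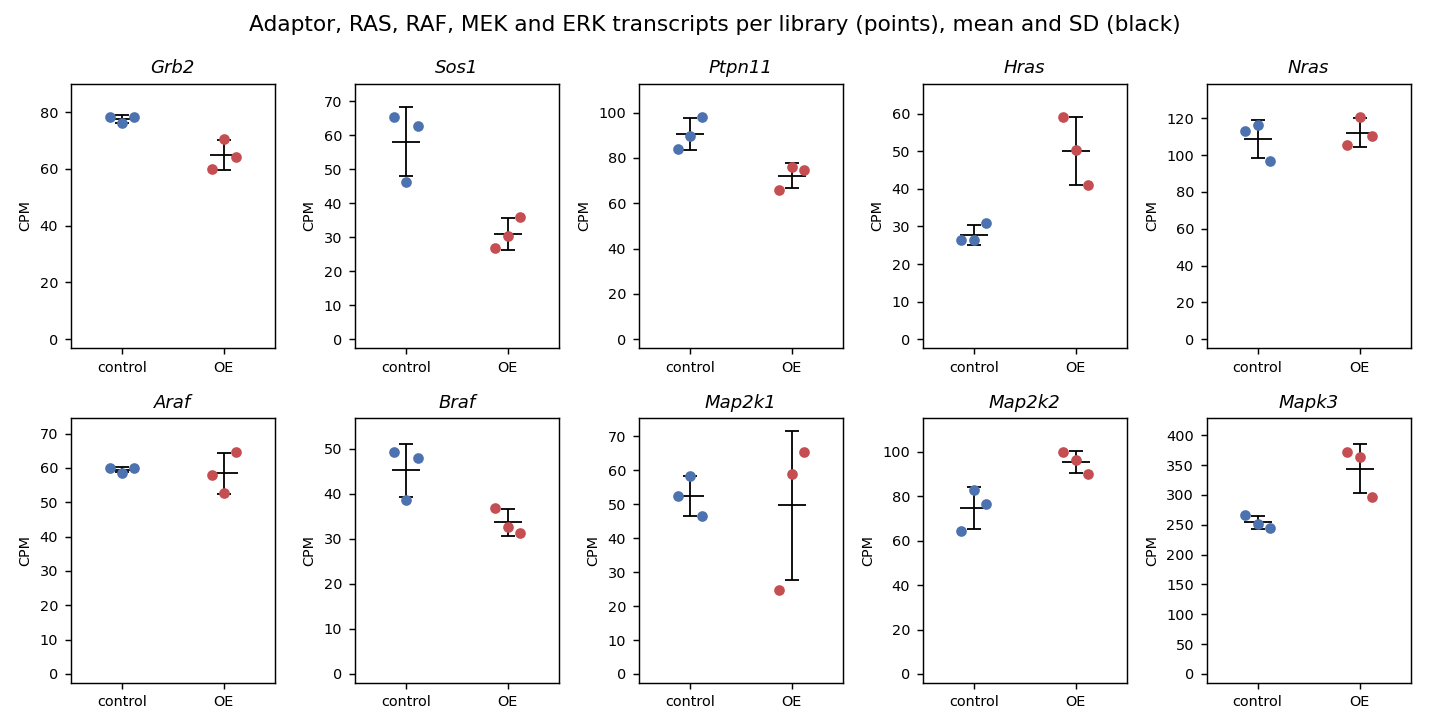
CPM (y axis) of the 10 adaptor, RAS, RAF, MEK and ERK transcripts in each library (points; blue control, red OE) with the mean and SD of 3 libraries in black. Sos1 is lower and Hras and Mapk3 are higher in all OE libraries, and the single low red point of Map2k1 is OE replicate 1 at 24.7 CPM.

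Most of the tested feedback inhibitors among the members were lower. Of the 9 DUSP, Sprouty and SPRED members, 8 were tested and 5 fell (Dusp4, Dusp5, Dusp6, Spry2 and Spred1), beside 12.7% of all tested genes. None rose and 3 were not called. Outside the members, Dusp3 fell (log2 change -0.51, edgeR adjusted p = 0.0263). Dusp7, Dusp8, Dusp9, Dusp10, Dusp14, Dusp16 and Spred3 were not called, with log2 changes from -0.91 (Spred3) to 0.86 (Dusp8). Spry4 had too few counts for the test. The median log2 change of the 8 was -0.66.

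Dusp5 encodes a nuclear phosphatase that acts on ERK. It was counted at 32.7, 26.3 and 25.8 CPM in control and 10.5, 10.2 and 13.5 CPM in OE. All OE libraries lay far below the lowest control library, and the fall was 2.47-fold (log2 change -1.31, SE 0.21, edgeR adjusted p = 0.000852).

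Dusp4, which also encodes a nuclear phosphatase of ERK and related kinases, was counted at 28.6, 26.7 and 36.4 CPM in control and 15.0, 15.7 and 18.2 CPM in OE. All OE libraries were lower, and the fall was 1.88-fold (log2 change -0.91, SE 0.19, edgeR adjusted p = 0.0045).

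Dusp6 encodes the cytoplasmic ERK phosphatase. Its levels were 161.8, 143.1 and 171.8 CPM in control and 79.4, 138.4 and 117.5 CPM in OE. OE replicate 2 nearly reached the lowest control library, while OE replicate 1 was the lowest. The fall was 1.42-fold (log2 change -0.51, SE 0.17, edgeR adjusted p = 0.0402). It no longer passed without control replicate 1, 2 or 3 (edgeR adjusted p = 0.12, 0.0707 and 0.154), nor with scaling by library totals (edgeR adjusted p = 0.0641).

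Dusp1, whose product acts on ERK, JNK and p38 kinases and is also induced by stress, was counted at 26.7, 27.7 and 27.2 CPM in control and 30.8, 37.0 and 52.0 CPM in OE. Unlike the other DUSP members it was above control in every OE library, as was Dusp8 outside the members. Dusp1 spread widely in OE and was not called (log2 change 0.55, SE 0.20, edgeR adjusted p = 0.0525). Without OE replicate 1 it passed (log2 change 0.65, edgeR adjusted p = 0.0084), and without OE replicate 3 the log2 change was 0.32 (edgeR adjusted p = 0.168). With the GC offset it was 0.37 (edgeR adjusted p = 0.187).

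Spry2, a Sprouty gene that restrains receptor tyrosine kinase signalling to RAS, fell as well. Its levels were 63.1, 62.4 and 60.8 CPM in control and 24.7, 30.7 and 24.9 CPM in OE. The spread within groups was small beside the step between them, a 2.31-fold fall (log2 change -1.21, SE 0.15, edgeR adjusted p = 0.000177).

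Its relative Spry4 had 9, 9 and 7 counts in control and 0, 1 and 3 in OE. The pooled counts of 25 and 4 gave a ratio of OE to control of 0.14 (95% exact interval 0.0355 to 0.407, counting error only). With no count filter, in a fit over 18991 genes, the edgeR adjusted p of Spry4 was 0.0011. Spry1 went a different way, with 9.68, 10.8 and 11.1 CPM in control and 6.08, 10.2 and 25.4 CPM in OE. Its OE libraries lay on both sides of control (log2 change 0.39, SE 0.42, edgeR adjusted p = 0.512), and without OE replicate 3 the value was -0.36.

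Spred1 encodes a membrane-bound inhibitor that works with neurofibromin on RAS. Spred1 stood at 82.0, 70.4 and 85.7 CPM in control and 59.6, 49.9 and 66.0 CPM in OE. The groups did not overlap, and the fall was 1.36-fold (log2 change -0.44, SE 0.14, edgeR adjusted p = 0.0326). This was the least stable of the 12 calls, lost in 8 of 18 alternatives: with DESeq2's test (adjusted p = 0.0502), the GC offset (log2 change -0.21, edgeR adjusted p = 0.32) and without OE replicate 2, control replicate 1 or control replicate 3 (edgeR adjusted p = 0.0953, 0.112 and 0.139), among others.

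Spred2, its paralogue, was counted at 10.6, 14.1 and 14.7 CPM in control and 2.03, 6.29 and 14.4 CPM in OE. OE replicate 3 lay within the control range and the other OE libraries below it, so that Spred2 was not called (log2 change -0.81, SE 0.44, edgeR adjusted p = 0.191). Without OE replicate 3 the log2 change was -1.63 (edgeR adjusted p = 0.0079), and without OE replicate 1 it was -0.42 (edgeR adjusted p = 0.327).

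**Figure D4:**
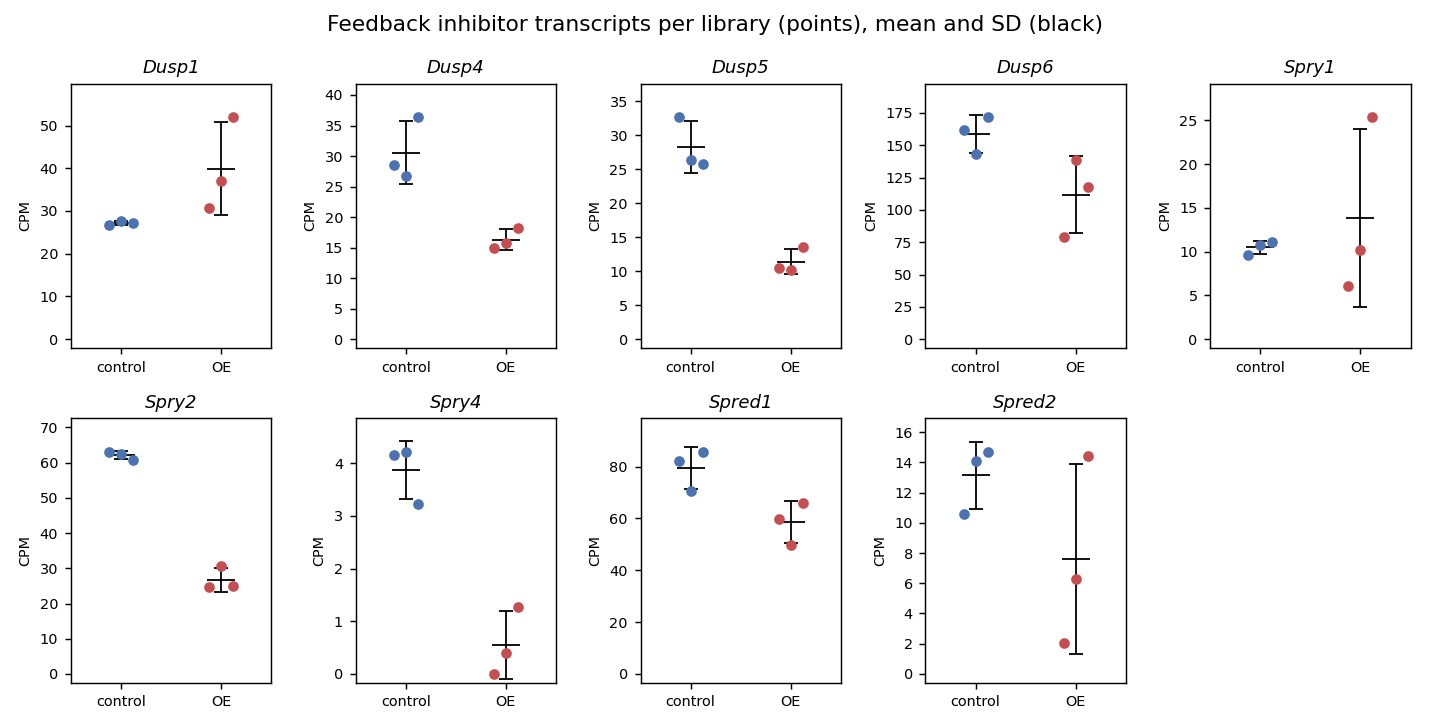
CPM (y axis) of the 9 DUSP, Sprouty and SPRED transcripts in each library (points; blue control, red OE) with the mean and SD of 3 libraries in black. Dusp4, Dusp5, Dusp6, Spry2 and Spred1 are lower in all OE libraries, Spry4 reaches at most 1.27 CPM in OE, Dusp1 lies above control in all OE libraries, and the red points of Spry1 and Spred2 are widely spread.

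The promoters of Dusp5 and Spry2 are shown because they fell in all 18 alternatives and have an entry in the promoter table. In the Dusp5 window (chr19:53528895-53529194, plus strand, GRCm38.p6, RefSeq) the capitals are 2 adjacent CArG boxes, starting 82 and 72 bases before the start site. In the Spry2 window (chr14:105896770-105897069, minus strand) the capitals are one ETS core, CCGGAA, which starts 33 bases after the start site.
Dusp5: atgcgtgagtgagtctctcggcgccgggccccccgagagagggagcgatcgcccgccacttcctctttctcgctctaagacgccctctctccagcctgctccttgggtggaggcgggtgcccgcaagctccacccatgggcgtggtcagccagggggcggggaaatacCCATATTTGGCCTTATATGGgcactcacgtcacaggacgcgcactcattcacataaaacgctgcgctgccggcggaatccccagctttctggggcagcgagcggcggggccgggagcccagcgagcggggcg
Spry2: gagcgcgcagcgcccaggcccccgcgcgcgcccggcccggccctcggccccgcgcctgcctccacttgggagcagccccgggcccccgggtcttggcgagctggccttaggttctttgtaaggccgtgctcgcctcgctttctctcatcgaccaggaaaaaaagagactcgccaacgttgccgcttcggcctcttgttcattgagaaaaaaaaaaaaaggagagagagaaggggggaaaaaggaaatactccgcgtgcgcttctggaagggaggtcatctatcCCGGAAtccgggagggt
A CArG box was found in 1.64% and the ETS core in 15% of all 32544 windows. Among the 25 members with an entry, Dusp5 was the one with a CArG box, and 7 held the ETS core (Araf, Egfr, Hras, Map2k1, Ptpn11, Sos1 and Spry2), among them genes that rose, fell and were not called. The AP-1 site was found in 7.79% of windows and in 1 member, Met. Here too the shares count windows, whereas members are counted as genes. These matches describe the letters of the windows and are not evidence of binding.

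None of the 3 ERK-responsive members was called. Phlda1, the most abundant member and an ERK-induced gene often used as a crypt stem cell marker, was counted at 548.4, 581.3 and 550.6 CPM in control and 469.6, 491.9 and 499.3 CPM in OE. Its groups did not overlap, but the step was small (log2 change -0.20, SE 0.09, edgeR adjusted p = 0.118). The value was -0.23 without OE replicate 1 (edgeR adjusted p = 0.0415) and -0.45 with the GC offset (edgeR adjusted p = 0.0077).

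Etv4 and Etv5 encode ETS transcription factors induced by ERK. Etv4 was counted at 10.6, 7.51 and 10.6 CPM in control and 9.32, 13.0 and 11.8 CPM in OE (log2 change 0.25, SE 0.26, edgeR adjusted p = 0.498). Etv5 was counted at 9.68, 8.91 and 12.9 CPM in control and 15.8, 16.1 and 10.6 CPM in OE (log2 change 0.43, SE 0.26, edgeR adjusted p = 0.226). Both overlapped between groups at levels where a library held only 16 to 41 counts. A list of 10 transcripts used as a score of MAPK activity (Phlda1, Spry2, Spry4, Dusp4, Dusp6, Ccnd1, Epha2, Epha4, Etv4 and Etv5) shares 7 genes with the members. Of its 9 tested genes 3 fell and none rose, beside 12.7% and 16.5% of all tested genes, and the median log2 change was -0.20. The 3 were Spry2, Dusp4 and Dusp6, which are members already counted above. Ccnd1, Epha2 and Epha4, which are not members, were not called. Without OE replicate 1, 5 of the list passed, all lower, beside 15.9% of all genes lower in that fit.

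Members also differed among the OE libraries. The SD of log2 CPM was larger in OE than in control for 19 of 32 members (59.4%), against 67.5% of all tested genes. OE replicate 1 was the lowest OE library for 19 of the 32 members, against 36.8% of all tested genes. Relative to the control mean, the median log2 difference of the 32 tested members was -0.38 in OE replicate 1, -0.18 in replicate 2 and -0.14 in replicate 3, beside 0.01, 0.06 and 0.08 over all tested genes.

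Sequence composition moved with the fold changes. The median GC content of the longest transcript was 53.6% over all genes that rose and 45.7% over all that fell. Hras and Mapk3, the members that rose, had 55.2% and 57.6%, and the 10 that fell ran from 37.7% (Btc) to 56.7% (Dusp5). Dusp4 had 56.0%. With a per-library offset for GC content, Dusp5 (-1.53) and Dusp4 (-1.13) were further from 0. Btc (-0.66), Sos1 (-0.68) and Hras (0.64) were nearer to 0 and still passed. Ereg, Spred1 and Mapk3 no longer passed, while Grb2, Phlda1 and Ptpn11, not called before, now passed as lower.

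**Figure D5:**
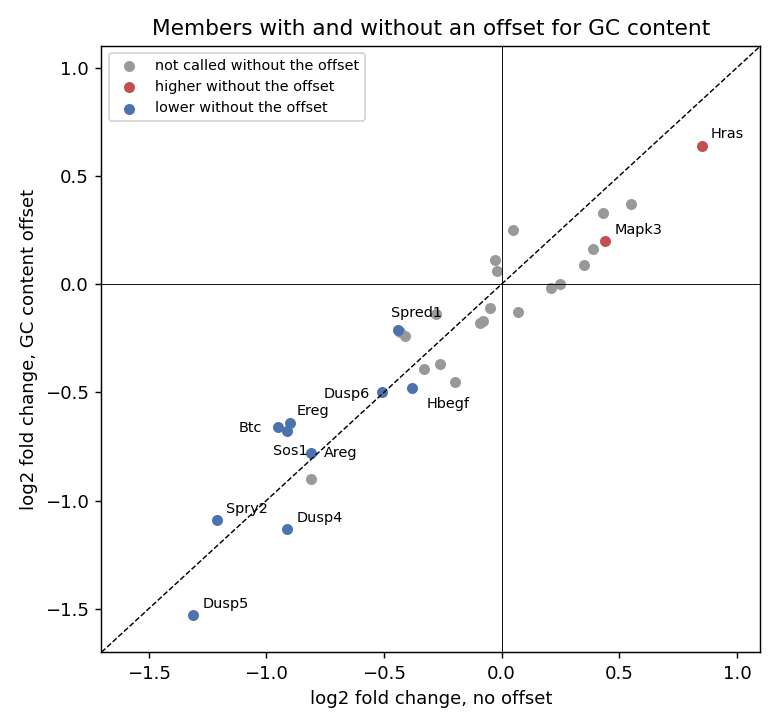
Log2 fold change of each tested member without (x axis) and with (y axis) a per-library offset for GC content; the dashed line marks equality and colours give the call without the offset. Dusp5 and Dusp4 lie below the line at -1.53 and -1.13, Mapk3 and Spred1 approach 0, and no called member changes sign.

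A wider list held 78 other genes of the pathway. Of these, 65 were tested, 7 rose and 13 fell, beside 16.5% and 12.7% of all tested genes, with a median log2 change of -0.09. Without OE replicate 2 the number that fell was 8 (9.86% of all genes), and without control replicate 1, 2 or 3 it was 6, 5 and 6 (7.27%, 6.91% and 6.52% of all genes). Among the 13 tested ligand, receptor and shedding genes 4 fell and 1 rose, among the 31 relay genes and regulators 7 fell and 6 rose, and among the 21 feedback and ERK-responsive genes 2 fell and none rose.

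Upstream of the receptors, Adam10, a membrane protease that releases betacellulin and other ligands, fell from 165.2 ± 7.58 to 97.58 ± 9.22 CPM (SD, n = 3; log2 change -0.76, edgeR adjusted p = 0.00061). Rhbdf1, an inactive rhomboid that guides the protease ADAM17, rose from 41.76 ± 7.15 to 68.18 ± 6.28 CPM (log2 change 0.71, edgeR adjusted p = 0.00463). Adam17 itself and the related gene Rhbdf2, named with their values seen, were not called (log2 changes -0.17 and -0.00, edgeR adjusted p = 0.448 and 0.991). Nrg1, a neuregulin ligand of ERBB3 and ERBB4, had 23, 20 and 28 counts in control and 12, 11 and 12 in OE (log2 change -1.20, edgeR adjusted p = 0.00731). Cbl, a ubiquitin ligase that removes activated EGFR, fell by 0.80 on the log2 scale (edgeR adjusted p = 0.0011). Igf1r, the IGF receptor, fell from 188.8 ± 1.43 to 64.15 ± 9.44 CPM (SD, n = 3; log2 change -1.56, edgeR adjusted p = 1.47e-05).

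Within the relay, Shoc2, a scaffold that helps to activate RAF, fell from 110.9 ± 10.9 to 41.64 ± 4.67 CPM (SD, n = 3; log2 change -1.41, edgeR adjusted p = 4.97e-05). Shoc2 overlaps Bbip1 on the opposite strand, which had 95 to 142 counts, and the strand setting of the counting is not given, so its value is uncertain. On the log2 scale Rras, a RAS-related gene, rose by 0.63, its paralogue Rras2 by 0.65 and Rasgrf1, an exchange factor, by 1.65 from 7 to 13 counts in control to 33 to 40 in OE (edgeR adjusted p = 0.00154, 0.00196 and 0.00111). Of the kinase genes that act downstream of ERK, Rps6ka1 rose by 0.73 and Mknk2 by 0.61 (edgeR adjusted p = 0.00231 and 0.00283), whereas Mknk1 and Rps6ka3 were not called, at -0.52 and -0.38 (edgeR adjusted p = 0.16 and 0.261), and Rps6ka2 was not tested (these 3 are named with their values seen). Mknk2 missed the threshold with the GC offset (0.35, edgeR adjusted p = 0.0669). Peak1, a pseudokinase of growth factor signalling, fell by 0.53 (edgeR adjusted p = 0.013), a call lost without control replicate 1 or 2 (edgeR adjusted p = 0.0624 and 0.0696).

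By the annotation, Ereg, Sos1 and Dusp5 overlap annotated genes on the opposite strand. The counts of Gm19610 (over Ereg) and Arhgef33 (over Sos1) were at most 2 in any library, and the antisense gene over Dusp5 was not analysed here. The other called members, Areg, Hbegf, Btc, Hras, Mapk3, Dusp4, Dusp6, Spry2 and Spred1, overlap no annotated gene. Among members that were not called, Erbb2, Lrig1, Araf, Braf, Map2k1 and Dusp1 overlap protein-coding genes on the opposite strand, so their values are uncertain in the same way as that of Shoc2.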

How the data were processed

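Libraries were made with a Lexogen 3′ mRNA kit, which reads transcript ends, per the labels' protocols. STAR and HTSeq and the builds mm10 and GRCm38 are named in the submitters' processing notes, and their settings for strand, annotation and reads mapping to several genes are not given in the sources used here. What the authors deposited are estimated counts, 1 value per gene and library, without normalization. Of the deposited values 2843 (3.09% of those above 0) were fractional. The planned test assumed whole numbers, so every value was rounded.

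Columns were matched to samples through the library names in the descriptions, and groups were taken from the titles. OE was compared with control in edgeR 4.0.16 (R 4.3.3) by the quasi-likelihood test with filterByExpr, TMM scaling and no covariates, and p-values were adjusted over all 10687 tested genes. Counts of 3 (1.18 to 1.41 CPM) were taken as the detection floor, for counting error only. The code was tested on simulated data. Positions, GC content and lengths came from GENCODE M21 (GRCm38) by gene identifier.

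The members and lists were chosen with earlier results of these data known. The naming rule took every member by role, and of the other pathway genes up to 12, by smallest p, that passed and had an absolute log2 change of at least 0.5 and an average log2 CPM of at least 3. Alternatives were DESeq2 1.42.0, limma-voom (limma 3.58.1), other scalings and filters, equal depth, offsets for GC content or length (loess, span 0.5), removal of abundant genes, the replicate block and each library left out.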

Additional observations from a re-analysis of the deposited data

How the results depend on the processing

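Of 216 values of the 12 called members under 18 alternatives, 193 stayed as reported, 23 missed the threshold and none changed sign. Areg, Btc, Dusp4, Dusp5, Hras, Sos1 and Spry2 passed in all 18. Members that rose numbered 1 with the GC offset (12.8% of all genes) and 1 with that offset and the replicate block together (13.7%). They numbered 1 at an adjusted p below 0.01 (8.83%) and 4 when scaled by library totals (19%). They numbered 1 to 3 when a library was left out (9.42% to 18.1% of all genes). The number that fell was 6 at an adjusted p below 0.01 (5.93% of all genes). It was 6 to 13 when single libraries were left out (6.52% to 15.9% of all genes). Over all genes 1578 passed at 0.01, and 1748 to 3532 when single libraries were left out, the lowest counts (1893, 1837 and 1748) being those without control replicate 1, 2 or 3. The other pathway genes that fell numbered 6 with the exonic length offset (10.3% of all genes). They numbered 5 to 15 when single libraries were left out (6.52% to 15.9% of all genes). Of the MAPK activity list 5 passed without mitochondrial genes and CT010467.1 (29.2% of all genes). When single libraries were left out, 2 to 5 of that list passed (15.9% to 32.6% of all genes). The median of the members ran from -0.30 to -0.18.

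The numbers were not taken as pairs: deviations of equally numbered libraries correlated at 0.1, 0.02 and 0.07, and the labels tie no number to a shared culture. With the replicate block 3112 genes passed (16.2% of all genes higher and 12.9% lower), and among the members 3 rose and 10 fell. The block brought Dusp1 below the threshold (adjusted p = 0.0467) and lost none of the 12 calls.

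The sign changed for 8 uncalled members under some settings. With the GC offset, Erbb2 became -0.02, Lrig1 -0.13 (-0.16 with the block), Errfi1 0.06 and Araf 0.11. With library totals Tgfa became 0.002, Araf 0.02 and Errfi1 0.03. The length offset gave 0.03 for Tgfa and 0.05 for Araf. Tgfa was 0.04 at equal depth, and Nras -0.01 without mitochondrial genes and CT010467.1. Leaving out single libraries gave ranges of -0.37 to 0.24 for Tgfa, -0.21 to 0.39 for Lrig1, -0.15 to 0.12 for Errfi1, -0.04 to 0.10 for Nras, -0.10 to 0.01 for Araf, -0.32 to 0.19 for Map2k1 and -0.36 to 0.69 for Spry1. The cause of these changes was not tested. Depth limited Spry4 most: its 25 and 4 pooled counts leave a ratio anywhere from 0.0355 to 0.407.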
